A study of Homo sapiens with 10 samples.

Results

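The genes described here are 10 secreted mediators of inflammation, the chemokines CXCL1, CXCL2, CXCL3, CXCL8, CCL2 and CCL20 and the cytokines IL6, LIF, IL1A and IL1B. They were taken by name, with Ensembl identifiers matched to GENCODE 44 symbols, from the 60448 genes of one RNA-seq count table, and all 10 were found. Their mRNA was compared between EA.hy926 and HMEC-1, human endothelial lines that were both wild type and untreated, with 5 independent biological replicates per line. EA.hy926 was made by fusing human umbilical vein endothelial cells with lung carcinoma cells of the line A549. HMEC-1 came from microvascular endothelium of the dermis and was immortalized by the SV40 large T antigen. EA.hy926 was grown in Advanced DMEM with 5% fetal bovine serum (FBS). HMEC-1 was grown in MCDB 131 with 10% FBS, to which 1 µg/mL hydrocortisone, a glucocorticoid, and 10 ng/mL epidermal growth factor were added. An effect of the line therefore cannot be told apart from an effect of its medium.

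Chemokines are small secreted proteins that guide leukocytes through G protein-coupled receptors, CXC chemokines of the CXCL8 type mainly neutrophils and CCL2 mainly monocytes. In endothelium most of these genes are kept low at rest and are induced within hours by IL-1, tumour necrosis factor or bacterial products, through NF-κB and AP-1 at their promoters and through slower decay of mRNAs with AU-rich 3′ untranslated regions. IL-1α and IL-1β act on the same receptor, while IL-6 and LIF signal through receptor complexes that share the gp130 subunit.

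EA.hy926 libraries held 34846046 to 39899324 counts in all and those of HMEC-1 33391640 to 43877224, and replicates of a line correlated with Pearson's r of 0.995 to 0.996. Libraries were scaled by TMM factors, and levels are given as CPM (read counts relative to the scaled library size), mean ± SD over 5 replicates. The lines were compared with edgeR's quasi-likelihood test over 16310 genes that passed a filter on low counts. The log2 fold change (log2FC) is positive where EA.hy926 had the higher level and is given ± its standard error, and a gene was counted as higher or lower when its Benjamini-Hochberg adjusted p was under 0.05 and its absolute log2FC over 1. In these libraries 3 counts make 0.0651 to 0.0904 CPM, a floor that covers counting error only. All 10 endothelial markers examined were tested, with 5 higher and 2 lower in EA.hy926 and a summed level of 3789 to 4384 CPM in EA.hy926 against 1422 to 1452 CPM in HMEC-1. PECAM1, CDH5, VWF and ERG were higher (log2FC = 2.68, 1.52, 1.36 and 1.01; ERG, at the fold threshold, was not called when scaled by library totals or when tested against a log2FC of 1), but EMCN had 0 to 2 counts and CLDN5 0 to 5 counts per library in EA.hy926. Of 8 epithelial markers, examined because A549 is a carcinoma line, 6 were tested, with 2 higher and 2 lower in EA.hy926 and a summed level of 1275 to 1389 CPM against 425 to 487 CPM. The keratin gene KRT8 was at 546 ± 21.7 CPM (EA.hy926) and 19.2 ± 0.947 CPM (HMEC-1) (log2FC = 4.83) and EPCAM had a log2FC of 1.83, whereas KRT19 (-4.71) and CLDN4 (-1.42) were lower and CDH1 had at most 1 count in any library. Of 12 leukocyte markers only LYZ and CD14 were tested, and the defining marker PTPRC had 2 to 6 counts per library of EA.hy926 and at most 1 in HMEC-1. The summed level of the 12 markers was 9.53 to 12.3 CPM in EA.hy926, nearly all of it LYZ, and 0.954 to 1.42 CPM in HMEC-1. The part of these markers in the results on the members was not tested. In such bulk samples, fewer cells that express a gene and less RNA per cell cannot be told apart.

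The proximal promoters are shown for the 4 CXC chemokine genes and IL6, because CXCL1, CXCL2 and CXCL3, which had unlike log2FC values, are closely related here. Each line holds the 120 bases before the RefSeq start site (GRCh38.p14), 5′ to 3′ on the strand of the gene. The windows are chr4:73869273-73869392 (plus strand) for CXCL1, chr4:74099196-74099315 (minus) for CXCL2, chr4:74038690-74038809 (minus) for CXCL3, chr4:73740449-73740568 (plus) for CXCL8 and chr7:22727080-22727199 (plus) for IL6. Capitals mark a match to the kappa-B motif, the binding sequence of NF-κB, in CXCL1, CXCL2, CXCL3 and IL6, and the TATA box TATAAA in CXCL8. The CXCL8 window also holds the bases GGAATTTCC, which lie within the CXCL1 match and are printed in lower case in the CXCL8 line.
CXCL1: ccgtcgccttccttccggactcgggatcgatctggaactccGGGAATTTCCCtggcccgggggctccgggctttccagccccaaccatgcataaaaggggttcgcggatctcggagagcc
CXCL2: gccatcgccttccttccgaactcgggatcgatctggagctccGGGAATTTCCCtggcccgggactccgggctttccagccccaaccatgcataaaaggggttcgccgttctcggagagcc
CXCL3: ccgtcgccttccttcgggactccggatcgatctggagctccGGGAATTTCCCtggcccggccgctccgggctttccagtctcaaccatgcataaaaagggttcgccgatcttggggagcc
CXCL8: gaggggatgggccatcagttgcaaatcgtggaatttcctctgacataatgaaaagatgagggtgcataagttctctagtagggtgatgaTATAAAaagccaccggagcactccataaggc
IL6: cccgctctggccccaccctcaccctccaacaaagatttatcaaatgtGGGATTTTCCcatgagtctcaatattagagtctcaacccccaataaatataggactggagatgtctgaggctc

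The CXCL1, CXCL2 and CXCL3 windows carry the same capitals, where a match on the gene's strand and one on the other strand overlap. The match on the gene's own strand began 79 bases before the start site in CXCL1 and CXCL3 and 78 bases before it in CXCL2. Over the whole RefSeq promoter windows (250 bases before to 50 after the start), CXCL1 and CXCL3 were 82.5% identical, CXCL2 and CXCL3 73.8% and CXCL1 and CXCL2 71.9%, whereas CXCL1 and CXCL8 were 45.2% identical. Of the 10 members, 8 matched the promoter table, with 9 windows because IL1A has 2; CCL2 and LIF did not match. Searched on both strands, the kappa-B motif, taken as a strict pattern of 10 bases that begins with GGG, was found in 5 members (CXCL1, CXCL2, CXCL3, IL6 and CCL20) and in 5.91% of all 35116 promoter windows. The CXCL8 window missed this pattern by its first base only. The 9 bases GGAATTTCC, searched after the windows were seen, were found in CXCL1, CXCL2, CXCL3 and CXCL8 and in 0.461% of all windows. The AP-1 motif TGANTCA was found in CXCL8 and IL1A and in 7.71% of all windows, and the bases TATAAA in CXCL8, CCL20 and IL1A and in 11.5%. TATAAA began 31 bases before the start site in CXCL8 and 29 in CCL20. In IL1A it began 239 bases before the start site, and the other IL1A window had no match. These matches describe letters, and binding was not measured.

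Of the 10 members, 7 passed the filter and were tested. CCL2 and IL1A were higher in EA.hy926, 2 members where 19.1% of all tested genes were called in that direction. IL1A, with 1 to 4 counts per HMEC-1 library, passed the filter only through its EA.hy926 libraries. CXCL1, CXCL8, IL6 and LIF were lower, 4 members where 16.4% of all tested genes were called. In either direction, 6 members passed, where 35.5% of all tested genes did. CXCL2 passed neither threshold, and CXCL3, CCL20 and IL1B had too few counts to be tested. The median log2FC of the 7 tested members was -1.24 against -0.01 over all genes tested. The CPM ranges of the lines did not overlap for 8 of the 10 members, a pattern seen in 77.4% of tested genes and in 43.3% of genes with any count.

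**Figure D1:**
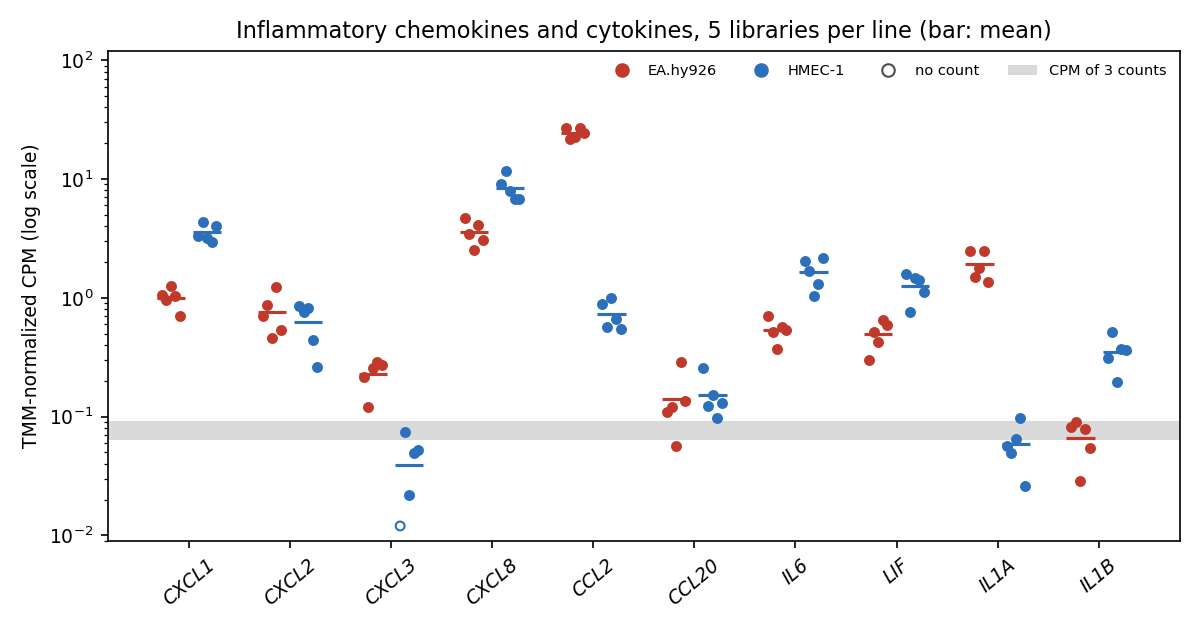
TMM-normalized CPM (log axis) of the 10 members in the 5 EA.hy926 libraries (red) and the 5 HMEC-1 libraries (blue); bars are means, the grey band is the CPM of 3 counts in the libraries, and the open point marks the library without a count. CCL2, IL1A and CXCL3 lie higher in every EA.hy926 library, CXCL1, CXCL8, IL6, LIF and IL1B in every HMEC-1 library, and CXCL2 and CCL20 overlap.

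Among the neutrophil-attracting CXC chemokines, CXCL8 and CXCL1 were higher in HMEC-1, CXCL2 was close in level in both lines, and CXCL3 leaned to EA.hy926 on few counts. CXCL8 (ENSG00000169429, chromosome 4, 73740519 to 73743716, plus strand) encodes interleukin-8, the ligand of CXCR1 and CXCR2 (gene positions are on GRCh38, from GENCODE 44). Its EA.hy926 libraries held 175, 114, 88, 156 and 113 counts (replicates 1 to 5) and its HMEC-1 libraries 320, 476, 363, 277 and 258. The lowest HMEC-1 library was above the highest EA.hy926 library, and HMEC-1 replicate 2 stood highest. The means were 3.56 ± 0.870 CPM for EA.hy926 and 8.44 ± 2.05 CPM for HMEC-1, a 2.36-fold higher level in HMEC-1 (log2FC = -1.24 ± 0.15, adjusted p = 2.0e-07 by edgeR). It was not called by glmTreat of edgeR, which tests for a log2FC beyond 1 (adjusted p = 0.0646).

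CXCL1 (ENSG00000163739, chromosome 4, 73869393 to 73871308, plus strand), a ligand of CXCR2, had 39, 32, 44, 40 and 26 counts in the EA.hy926 libraries and 115, 178, 147, 120 and 154 in the HMEC-1 libraries. Every HMEC-1 library was well above every EA.hy926 library. The level was 1.00 ± 0.200 CPM (EA.hy926) and 3.56 ± 0.604 CPM (HMEC-1), 3.54-fold higher in HMEC-1 (log2FC = -1.83 ± 0.15, adjusted p = 4.0e-10 by edgeR). Unlike CXCL8, CXCL1 was also called by the test against a log2FC of 1 (adjusted p = 1.2e-05, glmTreat).

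CXCL2 (ENSG00000081041, chromosome 4, 74097040 to 74099196, minus strand), another CXCR2 ligand, had 26, 29, 16, 47 and 20 counts in EA.hy926 and 30, 31, 38, 18 and 10 in HMEC-1. The lines overlapped, and EA.hy926 replicate 4 was the highest of all 10 libraries. The means of 0.759 ± 0.305 CPM (EA.hy926) and 0.629 ± 0.263 CPM (HMEC-1) differed by less than the spread between replicates (log2FC = 0.27 ± 0.30, adjusted p = 0.396 by edgeR).

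CXCL3 (ENSG00000163734, chromosome 4, 74036589 to 74038807, minus strand), also a CXCR2 ligand, had 8, 4, 9, 11 and 10 counts in EA.hy926 and 0, 3, 1, 2 and 2 in HMEC-1. Every EA.hy926 library was above every HMEC-1 library, where none exceeded 3 counts. The level was 0.230 ± 0.0663 CPM (EA.hy926) and 0.0393 ± 0.0287 CPM (HMEC-1). The summed counts of 42 and 8 made a ratio of 5.84 (95% exact binomial interval 2.71 to 14.4, counting error only). In the edgeR fit without a filter on low counts its log2FC was 2.43 ± 0.59 (adjusted p = 9.3e-05). For the tested members that fit gave smaller adjusted p values than the filtered fit (IL6 2.2e-14 against 1.2e-06, both edgeR). Adjusted p values of these fits are therefore not on the same scale. A two-sided exact permutation test of the CPM values gave p = 0.00794, the smallest that 5 libraries against 5 allow, and 0.0119 after adjustment over the 3 untested members.

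The 3 near relatives CXCL1, CXCL2 and CXCL3 had log2FC values of -1.83, 0.27 and 2.43, and their promoter windows share the capitals printed above. The CXCL3 value comes from the fit without a filter and rests on few counts. Part of their sequence is shared in the transcripts too. Of all 50-base stretches of the canonical transcript, 5.33% in CXCL1, 10.1% in CXCL2 and 5.26% in CXCL3 occur in another of these genes, so a small share of reads could have been counted on the wrong one or on none. No 50-base stretch of CXCL8 occurs in another gene.

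**Figure D2:**
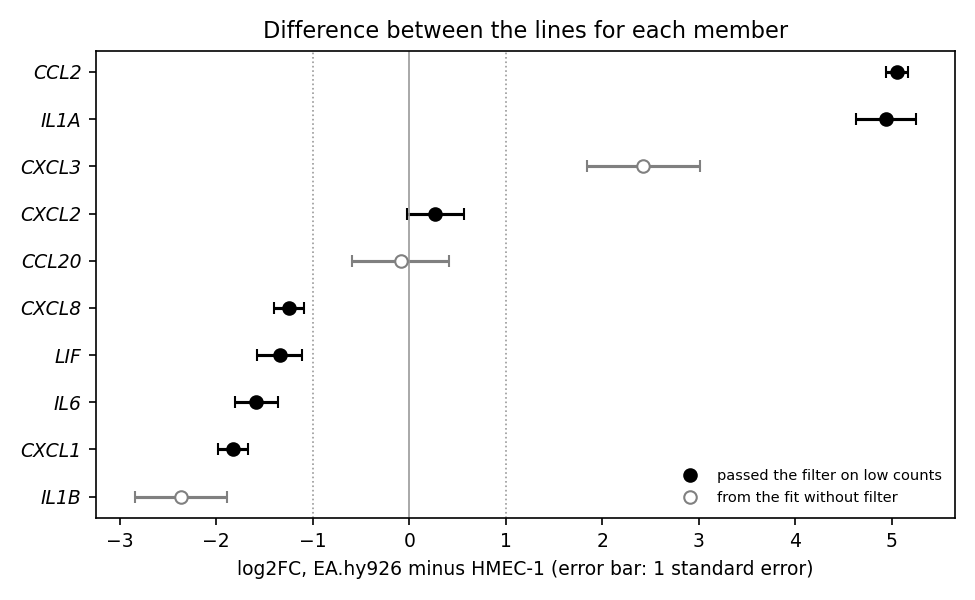
Log2FC of each member between EA.hy926 and HMEC-1 with 1 standard error; filled points were tested after the filter on low counts, open points come from the fit without filter, and dotted lines mark a log2FC of 1 in either direction. CCL2 (5.05) and IL1A (4.93) stand far to the right, and the members lower in EA.hy926 lie between -1.24 for CXCL8 and -2.36 for IL1B.

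Because transcripts differ in length, the makeup of the CXC group was compared in TPM (counts per exon length, scaled to the same sum in each library, with the union of a gene's exons as length). CXCL8 made up 49.6% ± 5.98 of the summed TPM of the 4 genes in EA.hy926 and 51.1% ± 3.67 in HMEC-1, with overlapping ranges. CXCL1 made up 27.2% ± 6.97 in EA.hy926 and 41.6% ± 5.71 in HMEC-1, where EA.hy926 replicate 3, at 39.5%, lay inside the HMEC-1 range. The share of CXCL2 was 19.3% ± 5.15 in EA.hy926, reaching 26.2%, against 3.24% to 9.85% over the HMEC-1 libraries, without overlap. CXCL3 gave 2.00% to 5.53% in EA.hy926 and at most 0.431% in HMEC-1. The summed CPM of the 4 genes was 5.55 ± 1.08 in EA.hy926 and 12.7 ± 2.60 in HMEC-1, so the HMEC-1 group was larger and held relatively less CXCL2 and CXCL3.

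**Figure D3:**
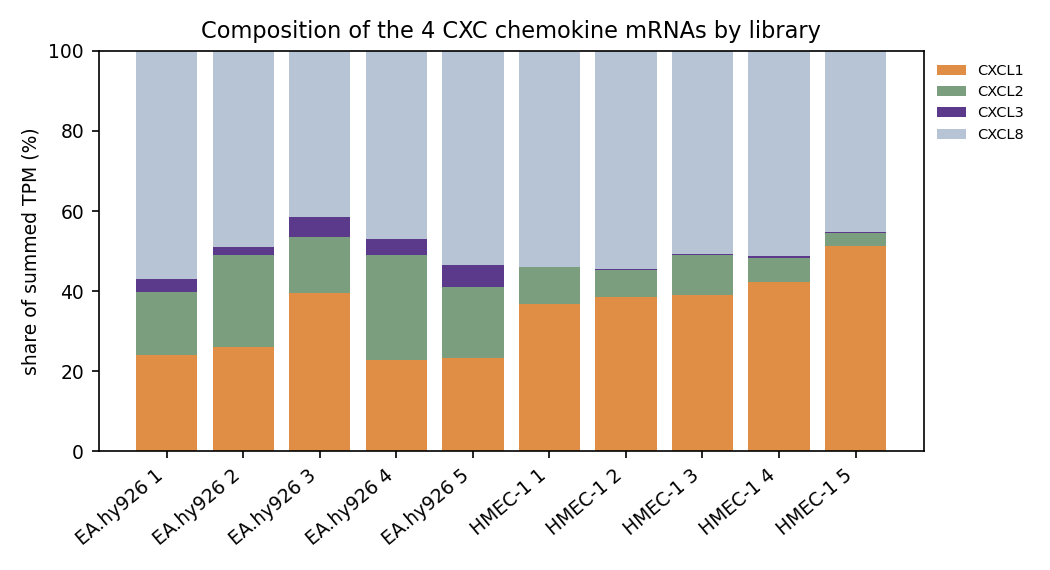
Share of each CXC chemokine in the summed TPM of CXCL1, CXCL2, CXCL3 and CXCL8, as stacked bars that add to 100% in each of the 10 libraries. CXCL8 takes about the same share in both lines, and the CXCL2 and CXCL3 bands are wider in every EA.hy926 library than in any HMEC-1 library.

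The 4 CXC genes lie in 1 cluster on chromosome 4 that spans 358678 bp from CXCL8 to CXCL2. Among its other genes, CXCL6, a further CXCR1 and CXCR2 ligand, had at most 1 count in each EA.hy926 library against 1 to 18 in each of HMEC-1. CXCL5, another ligand of CXCR2, had no count in EA.hy926 and 3 to 5 counts per library in HMEC-1. The platelet chemokine genes PF4 and PPBP had no count in any library, and PF4V1 had at most 1. Along the cluster, CXCL8, CXCL6, CXCL1 and CXCL5 were at the higher level in HMEC-1, and CXCL3 in EA.hy926, with CXCL5, CXCL6 and CXCL3 on few counts.

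**Figure D4:**
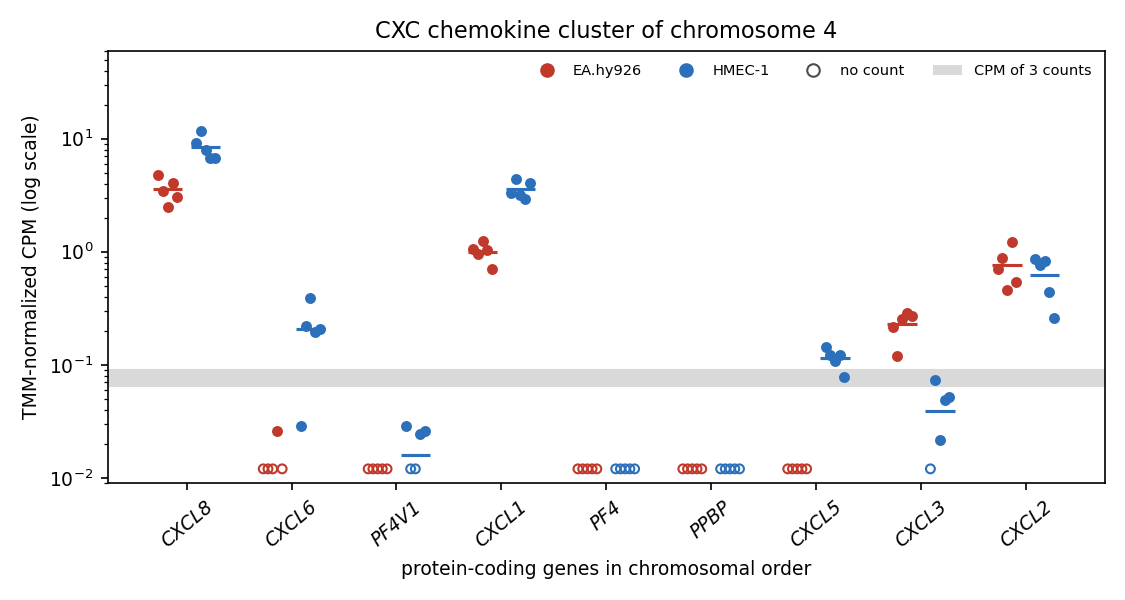
TMM-normalized CPM (log axis) of genes of the CXC cluster in chromosomal order, for 5 EA.hy926 libraries (red) and 5 HMEC-1 libraries (blue); open points are libraries without a count and the grey band is the CPM of 3 counts. CXCL8, CXCL1 and CXCL2 are the cluster genes above the band in all 10 libraries, and PF4 and PPBP have no count.

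CCL2 (ENSG00000108691, chromosome 17, 34255274 to 34257208, plus strand), the monocyte chemoattractant MCP-1 and ligand of CCR2, was the most abundant member in EA.hy926 and, with IL1A, had the largest fold change of the tested members. The EA.hy926 libraries held 986, 722, 792, 1035 and 913 counts and the HMEC-1 libraries 31, 23, 46, 27 and 21. No HMEC-1 library came near any EA.hy926 library, and the 5 EA.hy926 libraries were close to each other, with a coefficient of variation of 9.59%. The level of 24.5 ± 2.35 CPM in EA.hy926 was 33.2-fold that of 0.731 ± 0.200 CPM in HMEC-1 (log2FC = 5.05 ± 0.11, adjusted p = 2.3e-20 by edgeR). The line with the higher summed level depended on CCL2. The summed CPM of the 10 members was 33.2 ± 3.86 in EA.hy926 and 16.9 ± 2.57 in HMEC-1, and without CCL2 it was 8.71 ± 1.70 and 16.1 ± 2.60. CCL7, the monocyte chemokine gene next to CCL2, had between 2 and 11 counts in the EA.hy926 libraries and none in HMEC-1. The next gene in that direction, CCL11, which encodes eotaxin, had no count in any library.

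CCL20 (ENSG00000115009, chromosome 2, 227805739 to 227817564, plus strand), the ligand of CCR6, had 4, 4, 2, 11 and 5 counts in EA.hy926 and 9, 5, 7, 4 and 5 in HMEC-1. The lines overlapped almost wholly, with EA.hy926 replicate 4 the highest library. Means were 0.141 ± 0.0862 CPM and 0.152 ± 0.0616 CPM, a ratio of HMEC-1 to EA.hy926 of 1.04 (95% exact binomial interval 0.593 to 1.83, counting error only), and a two-sided exact permutation test gave p = 0.786. The edgeR fit without a filter gave a log2FC of -0.09 ± 0.50 (adjusted p = 0.899), and no difference was detectable at this depth.

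IL6 and LIF, cytokines that share the gp130 receptor chain, were both higher in HMEC-1. IL6 (ENSG00000136244, chromosome 7, 22725884 to 22732002, plus strand), an inducer of the acute phase response, had 26, 17, 13, 22 and 20 counts in EA.hy926 and 71, 69, 48, 53 and 83 in HMEC-1. All HMEC-1 libraries were above all EA.hy926 libraries. The level was 0.540 ± 0.120 CPM (EA.hy926) and 1.65 ± 0.476 CPM (HMEC-1), 3.00-fold higher in HMEC-1 (log2FC = -1.59 ± 0.22, adjusted p = 1.2e-06 by edgeR). Exons of other annotated genes, IL6-AS1 and STEAP1B, cover 9.9% of the exonic bases of IL6, and reads there cannot be assigned with certainty.

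LIF (ENSG00000128342, chromosome 22, 30240453 to 30246759, minus strand), leukaemia inhibitory factor, had 11, 17, 15, 25 and 22 counts in EA.hy926 and 56, 31, 67, 57 and 43 in HMEC-1. The lines did not overlap, although HMEC-1 replicate 2 was only a little above EA.hy926 replicate 4. Mean levels were 0.496 ± 0.139 CPM and 1.27 ± 0.331 CPM, 2.53-fold higher in HMEC-1 (log2FC = -1.34 ± 0.23, adjusted p = 1.9e-05 by edgeR), and the test against a log2FC of 1 did not call LIF (adjusted p = 0.0778, glmTreat). The antisense genes LIF-AS1 and LIF-AS2 cover 4.4% of its exonic bases. OSM, the gp130 cytokine gene next to LIF, had at most 1 count in any library.

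The neighbouring IL-1 genes, 45257 bp apart on chromosome 2, went in opposite directions. IL1A (ENSG00000115008, chromosome 2, 112773925 to 112784493, minus strand) encodes IL-1α, which is active as a precursor and is released by damaged cells. It had 91, 50, 63, 95 and 50 counts in EA.hy926 and 2, 2, 3, 4 and 1 in HMEC-1. All EA.hy926 libraries were far above HMEC-1, where the counts were at about the floor. The level was 1.92 ± 0.528 CPM (EA.hy926) and 0.0591 ± 0.0262 CPM (HMEC-1) (log2FC = 4.93 ± 0.31, adjusted p = 2.7e-12 by edgeR). The summed counts of 349 and 12 made a ratio of 32.3 (95% exact binomial interval 18.3 to 63.2, counting error only).

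IL1B (ENSG00000125538, chromosome 2, 112829751 to 112836816, minus strand) encodes IL-1β, which needs cleavage to become active. It had 3, 3, 1, 3 and 2 counts in EA.hy926 and 11, 21, 9, 15 and 14 in HMEC-1. No library of EA.hy926 exceeded 3 counts, and every HMEC-1 library was above all of them. The level was 0.0664 ± 0.0251 CPM (EA.hy926) and 0.352 ± 0.115 CPM (HMEC-1), and the summed counts of 12 and 70 made a ratio of HMEC-1 to EA.hy926 of 5.25 (95% exact binomial interval 2.82 to 10.6, counting error only). The fit without a filter gave a log2FC of -2.36 ± 0.48 (adjusted p = 1.9e-06 by edgeR), and the exact permutation test p = 0.00794 (0.0119 adjusted over the 3 untested members). As with CXCL3, the adjusted p of the fit without a filter cannot be set beside those of the tested members. Including the members that the filter left out, CXCL3 joined CCL2 and IL1A as higher and IL1B joined the 4 lower members, where 15.0% and 13.1% of the 33071 genes in that fit were called higher and lower.

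Ranked by TPM within a line, CCL2 led in EA.hy926 with 50.6 ± 4.82 TPM, above CXCL8 (5.48 ± 1.31), IL1A (3.79 ± 1.04), CXCL1 (2.94 ± 0.590) and CXCL2 (2.17 ± 0.876). From CXCL8 to CXCL2, the ranges of neighbours in that order overlapped. LIF, IL6, CXCL3 and CCL20 followed at means of 0.512 to 0.354 TPM, also with overlapping ranges, and IL1B was last at 0.0880 ± 0.0330 TPM. In HMEC-1 the order began with CXCL8 (14.4 ± 3.34 TPM) and CXCL1 (11.5 ± 1.82 TPM), whose ranges overlapped. CXCL2 (1.98 ± 0.832), IL6 (1.68 ± 0.481), CCL2 (1.67 ± 0.470) and LIF (1.45 ± 0.390) formed a second overlapping group, then IL1B (0.514 ± 0.163) and CCL20 (0.421 ± 0.173), and IL1A (0.129 ± 0.0582) and CXCL3 (0.0778 ± 0.0562) were last. Set against all tested genes with a length, the mean TPM of CCL2 in EA.hy926 exceeded that of 78.2% of genes. CXCL8 and CXCL1 in HMEC-1 came next, above 49.2% and 45.5% of genes. Apart from CCL2 in EA.hy926, every member stood below the median gene in each line (13.9 TPM in EA.hy926 and 15.0 TPM in HMEC-1).

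Most members carried AU-rich motifs in their 3′ untranslated regions. The nonamer TTATTTATT, a core of AU-rich elements, occurred in 6 members, against 8.5% of 19229 canonical 3′ untranslated regions and 5.4% of the 5621 with a length of 500 to 1500 bases. CXCL2 held 5 copies, CXCL1 3, LIF and IL1B 2 each, and CXCL3 and CXCL8 1 each. CCL2, IL1A, IL6 and CCL20 held none. The regions of CCL2, IL6 and CCL20 are the shortest of the members (376, 425 and 473 bases), below the length-limited group. That of LIF, with 3198 bases, lies above it. Counting the shorter ATTTA, IL6 had 14.1 per kb, more than 99.5% of these regions, and the value for CXCL2 was above 99.4% of them, whereas CCL2 had 2.66 and LIF 2.19 per kb, above 68.2% and 61.0%. IL1A had 4.38 per kb, above 87.2%. The part of these motifs in the differences between the lines was not tested.

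Of 13 receptors and decoys for the members, 6 were tested, of which 1 was higher and 3 lower in EA.hy926. IL1R1, the signalling receptor for both IL-1 proteins, had no count in any EA.hy926 library, which allows up to 0.0904 CPM, and 270 to 423 counts per HMEC-1 library (8.24 ± 0.697 CPM), at least 91.1-fold higher in HMEC-1 when set against 3 counts per library. IL1RAP, its co-receptor, was at 9.09 ± 0.420 CPM (EA.hy926) and 38.0 ± 1.21 CPM (HMEC-1) (log2FC = -2.06). IL1A mRNA was therefore higher in the line in which IL1R1 mRNA was not detected. LIFR, the specific chain of the LIF receptor, was at 6.77 ± 0.590 CPM (EA.hy926) and 37.2 ± 1.06 CPM (HMEC-1) (log2FC = -2.46), the same direction as LIF. IL6ST, which encodes gp130, was abundant in both lines (381 ± 21.0 and 499 ± 13.2 CPM) and with a log2FC of -0.39 did not pass the fold threshold, nor did IL6R (log2FC = -0.23). ACKR4, a scavenger of chemokines such as CCL19 and CCL21, which are not among the members, was the receptor gene called higher in EA.hy926 (log2FC = 3.59). CCR2 and CCR6, the receptors of CCL2 and CCL20, had no count in any library, and CXCR1 and CXCR2 at most 1 and 4. ACKR1, a decoy that binds many chemokines on venules, had no count in EA.hy926 and 8 to 17 per HMEC-1 library. The decoy receptor gene IL1R2 had at most 2 counts in any library. So did IL1RN, the gene of the IL-1 receptor antagonist, which is counted below among the further cytokine genes.

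Of 24 further chemokine genes, 3 were tested, and 15 had at most 3 counts in every library. CXCL12, a constitutive chemokine that binds CXCR4, had 0 to 2 counts in each EA.hy926 library against 1831 to 2377 in each of HMEC-1, a ratio of 1861 (95% exact binomial interval 797 to 5732, counting error only). CXCL16 was lower in EA.hy926 (log2FC = -1.92) and CCL5, which attracts T cells and monocytes, was higher (log2FC = 1.82). Of 28 further cytokine and colony-stimulating factor genes, 15 were tested, with 7 higher and 6 lower in EA.hy926. TNFSF15, IL18 and EBI3 were the most abundant of the higher ones, at 67.7 ± 9.09, 40.1 ± 3.19 and 26.7 ± 0.754 CPM in EA.hy926 (log2FC = 3.83, 5.27 and 6.31), followed by IL15, a growth factor of T and natural killer cells, at 9.68 ± 0.450 CPM (log2FC = 2.49). CSF1, the macrophage factor, was lower (log2FC = -1.13), as were IL32 (-2.40), IL11 (-2.03), a further gp130 cytokine, and TNFSF10 (adjusted p = 2.7e-07 by edgeR), which the test against a log2FC of 1 did not call. TNF had at most 1 count in any library. In neither of these lists did the called genes lie in 1 direction, as was also true of the members.

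**Figure D5:**
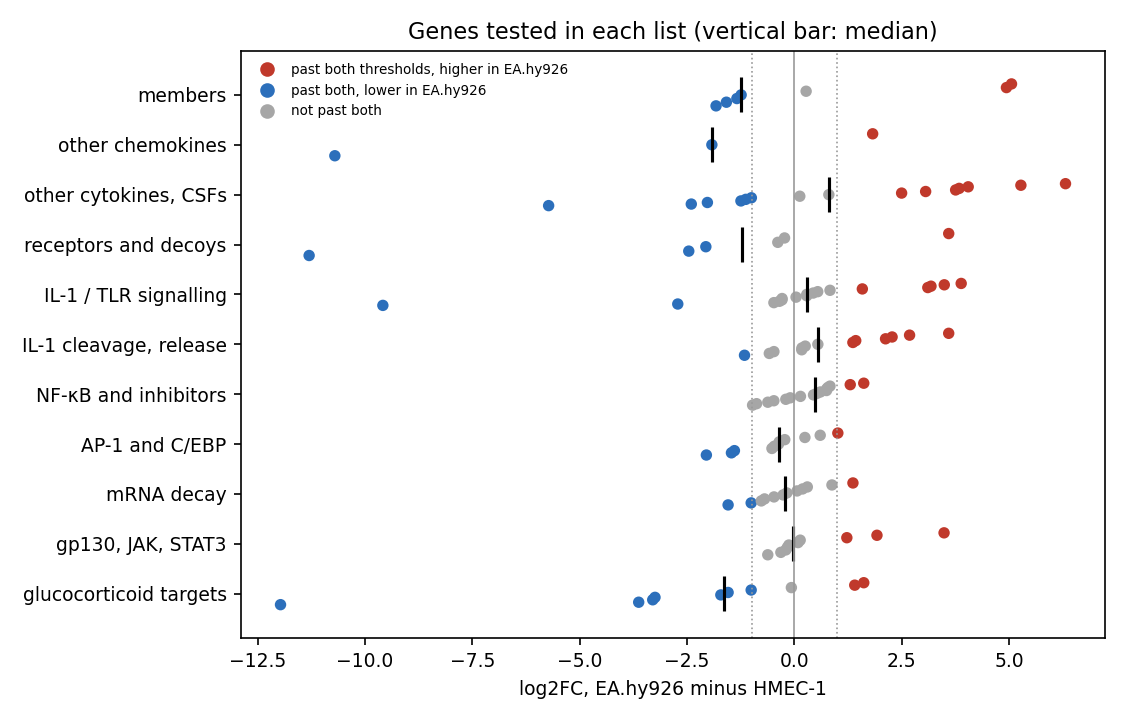
Log2FC (EA.hy926 minus HMEC-1) of every tested gene in the members and 10 related lists; red and blue points passed both thresholds, grey points did not, black bars are list medians and dotted lines mark a log2FC of 1. The members spread to both sides, with a median of -1.24, and 14 of 16 NF-κB genes lie between the dotted lines, while glucocorticoid target genes lie mostly to the left.

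Upstream of the members, all 16 genes of NF-κB subunits, the IKK complex and its inhibitors were tested, and 2 were higher and none lower in EA.hy926. These were NFKBIA, the inhibitor IκBα and itself an NF-κB target, at 138 ± 5.88 and 44.9 ± 0.975 CPM (log2FC = 1.61), and NFKBIZ, a nuclear cofactor needed for IL6 induction (log2FC = 1.30). RELA, the main activating subunit, had a log2FC of 0.44. Scaled by library totals instead of TMM factors, which shifted log2FC values by a median of -0.13, 4 genes of this list passed, as IKBKB (-1.02) and NFKBIE (-1.11) were then called lower.

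Of 19 genes of IL-1 and Toll-like receptor signalling, 17 were tested, with 5 higher and 2 lower in EA.hy926. IRAK2, a kinase of the receptor complex, was at 152 ± 8.26 CPM (EA.hy926) and 10.3 ± 0.723 CPM (HMEC-1) (log2FC = 3.88). SIGIRR, an inhibitory member of the receptor family, had a log2FC of 1.58, TLR3, the sensor of double-stranded RNA, one of 3.10, and TLR6, a partner of TLR2, one of 3.18. TLR2 itself was not tested, with at most 3 counts in any EA.hy926 library and at most 4 in any of HMEC-1. IRAK3, an inhibitor of the pathway, had 0 to 2 counts in each EA.hy926 library against 677 to 850 in each of HMEC-1, a ratio of 879 (95% exact binomial interval 343 to 3228, counting error only). The adaptor gene TIRAP was also lower (log2FC = -2.72), with other genes covering 12.1% of its exonic bases. TLR4, the lipopolysaccharide receptor, was at 136 ± 8.50 and 189 ± 3.83 CPM and did not pass the fold threshold.

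Of 14 genes of IL-1 cleavage and release, 13 were tested, with 6 higher and 1 lower in EA.hy926. CASP1, the caspase that cleaves the IL-1β precursor, was at 18.4 ± 0.894 CPM (EA.hy926) and 1.52 ± 0.109 CPM (HMEC-1) (log2FC = 3.59), opposite to IL1B. CAPN2, a calpain subunit of the family that processes IL-1α, had a log2FC of 1.36, the same direction as IL1A. CASP4, CASP8 and the inflammasome sensor gene NLRP1 were abundant too and had log2FC values of 2.27, 2.68 and 1.43. The inflammasome genes NLRP3 (log2FC = 2.12) and PYCARD (-1.16) differed in opposite directions, but other genes cover 66.0% and 59.7% of their exonic bases, and PYCARD was not called by the test against a log2FC of 1.

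Among 12 AP-1 and C/EBP genes, 11 were tested, with 1 higher and 3 lower in EA.hy926. The early response genes FOS (0.775 ± 0.239 and 2.15 ± 0.697 CPM, log2FC = -1.47) and FOSB (log2FC = -1.40) and CEBPD (log2FC = -2.05), a C/EBP factor of the acute phase, were lower. JUN, FOSL2 and JUND were far more abundant than FOS, at 178, 116 and 111 CPM in EA.hy926 and 227, 151 and 130 CPM in HMEC-1. None of these 3 passed the fold threshold. FOSL1, at 115 ± 6.95 CPM (EA.hy926) and 57.3 ± 2.88 CPM (HMEC-1) (log2FC = 1.01), was at the fold threshold and was not called by the test against it. Of 12 regulators of cytokine mRNA decay, all tested, ZFP36L1, which promotes decay of AU-rich mRNAs, was higher (log2FC = 1.36). ZFP36, which encodes the decay factor tristetraprolin (log2FC = -1.01), and DUSP1, a phosphatase of p38 kinase (log2FC = -1.55), were lower, ZFP36 without being called by the test against a log2FC of 1.

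Of 10 gp130, JAK and STAT3 pathway genes, all tested, 3 were higher and none lower in EA.hy926. These were the feedback inhibitors SOCS1, SOCS2 and SOCS3, which had log2FC values of 3.48, 1.92 and 1.22, opposite in direction to IL6 and LIF. STAT3 itself had 158 ± 7.29 and 149 ± 6.48 CPM and did not pass the fold threshold.

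Hydrocortisone, a glucocorticoid receptor agonist, was in the HMEC-1 medium only, and targets of this receptor are therefore given beside the members. With the receptor gene NR3C1 included, this list held 10 genes, all tested. Of them, 7 were lower and 2 higher in EA.hy926, with a median log2FC of -1.63. The lower ones include ZFP36, which was at the fold threshold. DUSP1, ZFP36 and NFKBIA are also counted in lists above. FKBP5, a standard glucocorticoid target, was at 43.5 ± 1.20 CPM (EA.hy926) and 413 ± 2.57 CPM (HMEC-1) (log2FC = -3.25), and KLF9, SGK1 and DUSP1 had log2FC values of -3.63, -1.71 and -1.55. TSC22D3 (log2FC = 1.40) and NFKBIA, also targets, were higher in EA.hy926, and the receptor gene NR3C1 differed little (log2FC = -0.07). In the line grown with hydrocortisone CCL2, IL1A and CXCL3 were at the lower level and CXCL1, CXCL8, IL6, LIF and IL1B at the higher level; the part of the medium in either was not tested.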

How the data were processed

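Gene expression of untreated cells of EA.hy926 and of HMEC-1 was measured by RNA-seq, with 5 replicates per line, which the sample labels name. The authors trypsinized the cells, selected mRNA with oligo(dT) beads, sequenced it on an Illumina instrument and aligned reads to GRCh38 with HISAT2, and the values they deposited are raw read counts per gene. The paper names HTSeq for counting and the submitters' processing notes name featureCounts; the annotation release and the strand setting are not given in the sources used here. P-values set the difference between the lines against the spread between these cultures, and they do not cover other lines or media.

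From the counts, genes were matched to GENCODE 44 by identifier (56434 of 60448), filtered with filterByExpr (minimum count 10, minimum total 15), scaled by TMM and tested by the quasi-likelihood functions of edgeR 4.0.16 (glmQLFit, glmQLFTest; R 4.3.3), without covariates. The standard error is the absolute log2FC over the square root of F. Alternatives used DESeq2 1.42.0, limma-voom (limma 3.58.1), other filters and scalings, a replicate block, glmTreat, another exon length and each library left out. Exon overlap came from bedtools 2.31.1, promoter identity from Biopython 1.88, and permutation tests and binomial intervals from scipy 1.17.1, run in Python 3.11.15 with numpy 2.4.6 and pandas 2.3.3. Promoters are RefSeq windows (GRCh38.p14), and 3′ untranslated regions are those of the canonical GENCODE transcripts. The edgeR step was tested on simulated counts. The members and lists were chosen with earlier results of these data known. Genes named were all members, the most abundant called genes of each list (up to 4 per direction), genes acting directly on a member, and genes next to members. Outside this rule, RELA, IKBKB, NFKBIE, JUN, FOSL2, JUND, TLR2, TLR4, TNF, STAT3, NR3C1, PTPRC and CDH1 were named after their values were seen. Chromosomal neighbours and the 3 genes with the CPM profile most like that of CCL2 are given at the end. The result for 1 gene of the lists is not reported here, and it does not enter the counts over that list.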

Additional observations from a re-analysis of the deposited data

How the results depend on the processing

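Of 163 log2FC values of members under the alternatives other than glmTreat, 160 kept their direction and their side of both thresholds. The other 3 were of CCL20, in which the sign turned to 0.01, 0.12 and 0.15 without EA.hy926 replicate 1, EA.hy926 replicate 3 or HMEC-1 replicate 1 (range -0.50 to 0.15 over the libraries left out). With at least 10 counts in every library, 1 member was higher in place of 2, since IL1A has at most 4 counts in HMEC-1. Against a log2FC of 1 itself (glmTreat), 2 members were lower in place of 4. With each library left out, 2 were higher and 4 or 5 lower, as IL1B then passed the filter in some fits. Genes called higher and lower over the whole table numbered 3110 and 2674, without a filter 4975 and 4337, and with at least 10 counts in every library 1857 and 1398. Among the lists, other chemokines had 8 calls without a filter in place of 3. With at least 10 counts in every library, other cytokines had 7 in place of 13 and receptors 2 in place of 4, and with library totals NF-κB genes had 4 in place of 2. With the longest transcript as length, 5 of 20 mean TPM values moved by more than 1 SD.

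Replicate numbers are shared by the lines but did not pair the libraries: deviations of same-numbered libraries correlated with r of -0.02 to 0.04, under the limit of 0.1. With the replicate number as a block, 2 members were higher and 4 lower, and over all genes 3111 and 2675. Depth limits what can be said of CXCL3, CCL20, IL1B and, in HMEC-1, IL1A, which rest on few counts, and 8 of the 10 members had fewer than 200 counts in every library.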

Other observations

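Of 17 protein-coding genes next to members and outside the chemokine and interleukin families, 8 were tested and HYCC1 was called, and of the 9 not tested EPGN and CASTOR1 were called in the edgeR fit without a filter. MTHFD2L, the mitochondrial folate enzyme gene beyond CXCL2, had a log2FC of 0.22, and CKAP2L, a mitotic spindle gene next to IL1A, one of -0.65, opposite in direction to IL1A. Beside IL6, STEAP1B had a log2FC of 0.37 and TOMM7 one of 0.30, opposite to IL6, and HYCC1 passed both thresholds with -1.11, the direction of IL6. EPGN, a growth factor gene beyond CXCL2, had no count in EA.hy926 and 1 to 5 counts per library in HMEC-1 (log2FC = -4.29 without a filter), where CXCL2 did not pass. The counts of CASTOR1 beside LIF ran from 0 to 8 for EA.hy926 and from 3 to 11 for HMEC-1, and the lines overlapped (log2FC = -1.30 without a filter, adjusted p = 0.0478 by edgeR). RASSF6 next to CXCL8 and ASIC2 next to CCL2 had no count in any library, and DAW1 beside CCL20 had a log2FC of 0.58.

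The tested genes whose log2 CPM profile over the 10 libraries was most like that of CCL2 were WNT16, a Wnt ligand, LINC02381, a long non-coding RNA, and PRKAR2B, a regulatory subunit of protein kinase A, with root mean squared differences of 0.132, 0.181 and 0.190 after centring each gene. These profiles were computed with a prior count of 2, on which scale the lines differed by 4.96, 5.19 and 5.21 against 5.00 for CCL2, while the edgeR log2FC values were 7.13, 5.38 and 5.23 against 5.05. WNT16 was at 0.0100 CPM in HMEC-1, below the level of 3 counts, so its closeness to CCL2 depends on the prior count. Within the lines the root mean squared differences from CCL2 were 0.131, 0.155 and 0.157. Within the lines, EA.hy926 replicate 4 was the highest of its line for 6 of the 10 members and the lowest for none, and EA.hy926 replicate 3 was the lowest for 5. HMEC-1 replicate 2 was the highest of its line for 4 members and HMEC-1 replicate 5 the lowest for 4.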
